A study of Rattus norvegicus with 6 samples.

Results

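Glycolysis and hypoxia-induced genes were examined as a group of 34 genes, taken as the rows of the deposited count table whose symbol is that of a glycolytic enzyme, a glucose or lactate transporter, a hypoxia-inducible factor (HIF), a HIF hydroxylase or a HIF target. All 34 symbols were found among the 21857 rows, and all 34 passed the low-count filter that left 12298 genes for testing. The members were chosen by name, with earlier results of these data known. The cells were rat adipose-derived mesenchymal stem cells of the Sprague Dawley strain, which are stromal cells of fat tissue grown in culture. All were kept in a DMEM/HG medium made without branched chain amino acids (BCAA), with 10% FBS and 1% penicillin/streptomycin, and all received 100 µM hydrogen peroxide, an oxidant. For 12 h the cells of 3 libraries had vehicle and those of 3 had 3.432 mM BCAA, so both groups were under oxidant stress and the vehicle group alone lacked the added amino acids. Nothing in the labels tells whether the 3 libraries of a group are separate cultures or animals, and the p-values therefore measure spread among these libraries alone, which may be technical.

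Glycolysis splits glucose into pyruvate in the cytosol and yields ATP without oxygen. Cells that cannot or do not oxidise the pyruvate reduce it to lactate and export it. When oxygen is scarce, the prolyl hydroxylases that mark HIF alpha subunits for destruction slow down, and the stabilised factor binds hypoxia response elements in the genes of most glycolytic enzymes, of lactate export and of mitophagy receptors. Mesenchymal stromal cells are known to rely strongly on glycolysis in culture. HIF alpha activity is set mainly at the level of protein stability, which transcript counts do not measure.

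Library totals ran from 12725344 to 15739731 counts. Levels are given as CPM, the counts of a gene scaled to a common library size, with library sizes adjusted by the trimmed mean of M-values (TMM). They are not corrected for transcript length, so levels of different genes are not compared. On the first principal component over all tested genes vehicle replicate 1 lay at -26.8, against -0.5 to 15.2 for the other 5 libraries. Stromal markers were well covered, with Thy1 at 348 and 361 CPM and Pdgfra at 269 and 275 CPM in vehicle and BCAA means, and none of 11 tested stromal markers passed the test. Of 7 tested markers of smooth muscle and pericytes, 2 were lower with BCAA and 5 did not pass. The 2 were Acta2 and Tagln, with log2 fold changes of BCAA over vehicle of -0.86 and -0.61. All 7 had a negative log2 fold change. In 6 of them (85.7%, against 8.76% of all tested genes) all BCAA libraries lay below all vehicle libraries. The summed level over 8 genes was 941 to 1012 CPM with vehicle and 653 to 681 CPM with BCAA. Most of it came from Tagln, with means of 794 and 519 CPM, while both group means of Rgs5 lay under 0.1 CPM. Leukocyte markers summed to 731 to 892 CPM with vehicle and 677 to 729 CPM with BCAA over 8 genes, mostly from Lyz2, with none of 6 tested past the threshold and Cd3e at 0 counts. Adipocyte markers (7 genes, 352 to 449 and 380 to 404 CPM, nearly all Lpl, with Adipoq, Plin1 and Lep under 1 CPM) and endothelial markers (5 genes, 7.45 to 8.70 and 7.41 to 9.38 CPM, with Cdh5 under 1 CPM) had none of 2 tested past the threshold each. The part of these other cell types in the differences below was not tested, and in bulk RNA fewer cells of a type and less RNA per cell cannot be told apart.

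Of the 34 genes, Ndrg1 rose with BCAA and the other 33 did not pass an adjusted p of 0.05 (edgeR's quasi-likelihood test, Benjamini-Hochberg over 12298 genes). In that test 0.0569% of all tested genes were called higher, 0.171% lower and 0.228% in either direction. The differences were small. The log2 fold change of BCAA over vehicle was above 0 for 26 of the 34 genes (76.5%), against 50.8% of all tested genes, and its median was 0.07 against 0.00 over all tested genes. At an unadjusted p under 0.05 there were 10 members higher (29.4%, against 5.95% of all genes) and 1 lower (2.94%, against 5.84%). The 3 BCAA libraries all lay above the 3 vehicle libraries for 12 members (35.3%, against 9.29%) and all below them for 2 members (5.88%, against 8.76%). Without vehicle replicate 1, 13 members were higher (against 9.03% of all genes) and 4 lower (against 9.46%) at an unadjusted p under 0.05, and 23 of 34 had a positive sign. This number was 7 higher and 0 lower without vehicle replicate 2, vehicle replicate 3 or BCAA replicate 2, and 6 higher and 0 lower without BCAA replicate 3. The share of all genes at that p, in either direction, was 9.04%, 10.8%, 9.08% and 9.81% in the same order, against 11.8% with all 6 libraries. Without BCAA replicate 1, 9 members were higher and 1 lower, where 7.77% of all genes were at that p in either direction. The median of the 34 was then 0.12. These counts describe the list, and members that share a regulator or a library are not independent of each other. Members also varied less than the background. Their median SE was 0.07, against 0.11 over all tested genes. Their median coefficient of variation among vehicle libraries was 5.49%, against 9.92%. A difference of a given size thus reaches a low p or non-overlap more readily in them, here and in the shares below.

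**Figure D1:**
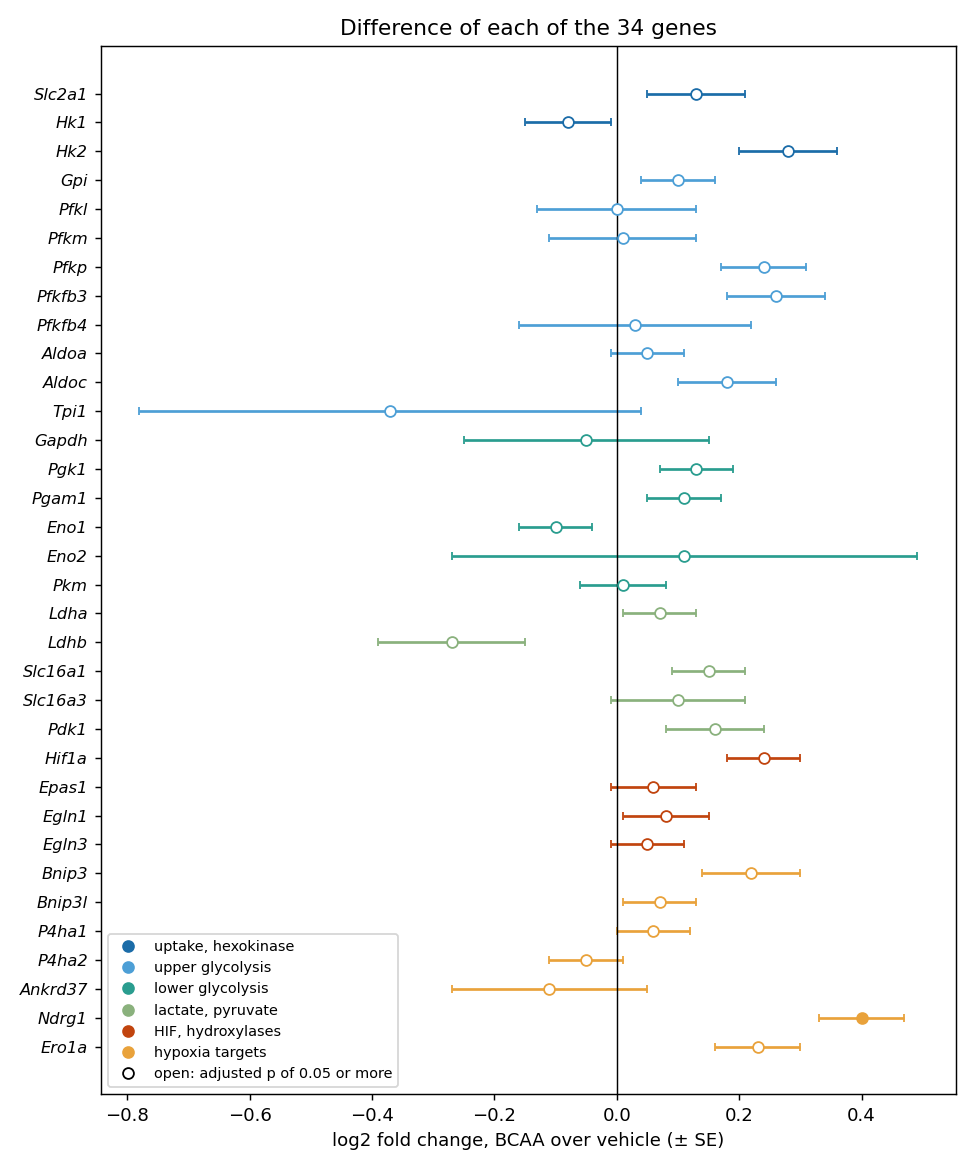
Log2 fold change of BCAA over vehicle (horizontal axis, points with bars of 1 SE from edgeR) for each of the 34 genes, coloured by role. Filled points passed an adjusted p of 0.05, which only Ndrg1 did, at 0.40, and most open points lie between 0 and 0.28.

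Among the hypoxia targets, Ndrg1 was the gene that changed. It encodes a cytoplasmic protein of the alpha/beta hydrolase fold that is induced by hypoxia, metal chelation and several other stresses. Its level was 133, 140 and 128 CPM in vehicle replicates 1 to 3 and 171, 177 and 180 CPM in BCAA replicates 1 to 3. All BCAA libraries thus lay above all vehicle libraries, with a gap larger than the range within either group. The rise was 1.32-fold (log2 fold change 0.40, SE 0.07), from 133 ± 5.72 to 176 ± 4.80 CPM (SD over 3 libraries each), with an adjusted p of 0.018. The log2 fold change stayed between 0.37 and 0.43 over all alternatives, but with any single library other than vehicle replicate 1 left out the adjusted p was between 0.059 and 0.17, and it was 0.16 with the replicate number as a block.

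Ero1a, the oxidase that drives disulfide bond formation in the endoplasmic reticulum, was at 165, 189 and 186 CPM with vehicle and 225, 211 and 199 CPM with BCAA. Bnip3, a receptor that directs mitochondria to autophagy, was at 319, 280 and 265 CPM with vehicle and 321, 330 and 354 CPM with BCAA. For both genes the groups did not overlap, although for Bnip3 vehicle replicate 1 came within 3 CPM of the lowest BCAA library. Their log2 fold changes were 0.23 (SE 0.07, adjusted p = 0.22) and 0.22 (SE 0.08, adjusted p = 0.27). Without vehicle replicate 1 the log2 fold change of Bnip3 was 0.30 with an adjusted p of 0.0031. The related mitophagy receptor Bnip3l (log2 fold change 0.07, SE 0.06) and the collagen prolyl hydroxylase subunits P4ha1 (0.06, SE 0.06) and P4ha2 (-0.05, SE 0.06) had overlapping groups. Ankrd37, a small ankyrin repeat protein that is a HIF target in many cell types, was at 8.45, 11.2 and 9.95 CPM with vehicle and 8.23, 11.0 and 8.14 CPM with BCAA, from 104 to 176 counts per library. Its log2 fold change was -0.11 (SE 0.16), an error too wide to show a difference of the size seen for Bnip3. Among the 7 hypoxia targets 1 thus rose and 6 did not pass, where 0.0569% of all tested genes were called higher. In 3 of the 7 (42.9%, against 9.29% of all tested genes) all BCAA libraries lay above all vehicle libraries.

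**Figure D2:**
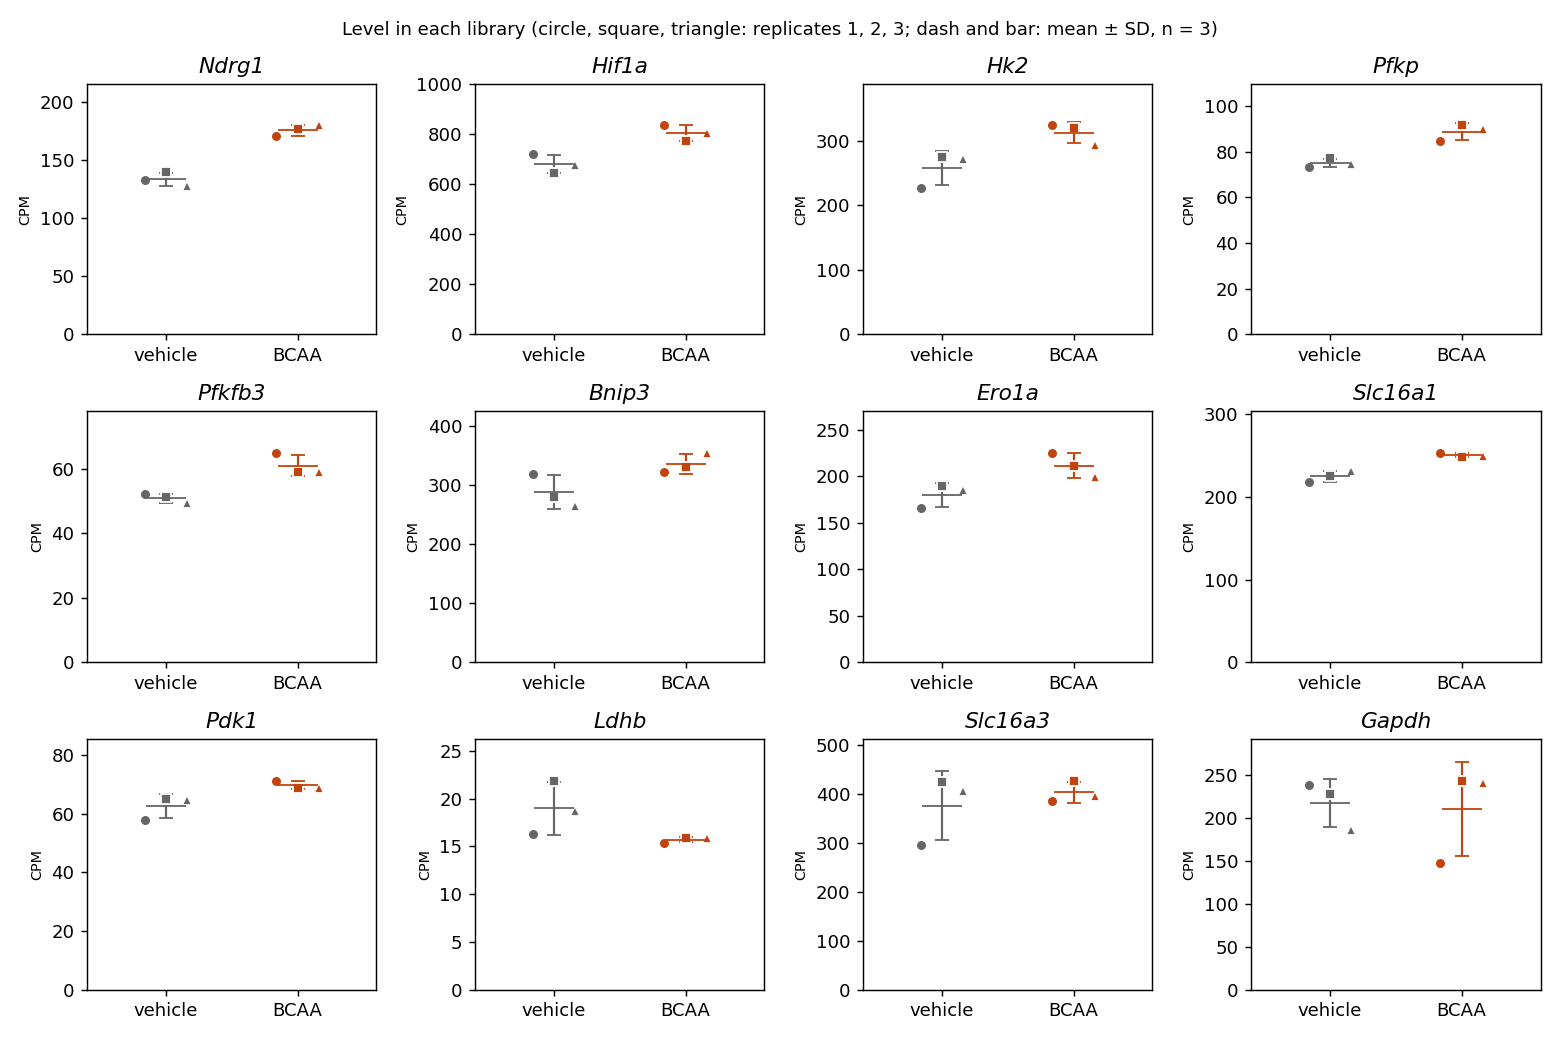
CPM on TMM-scaled library sizes (vertical axes, each from 0) in vehicle and BCAA libraries for 12 of the genes, with each replicate as a symbol and the mean with its SD as a dash and bar (n = 3). The groups lie apart in the Ndrg1 panel, and in the Slc16a3 panel vehicle replicate 1 lies apart from the other 5 libraries.

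The HIF subunits and their hydroxylases differed little. Hif1a, the broadly expressed oxygen-labile subunit, was at 719, 646 and 677 CPM with vehicle and 835, 773 and 805 CPM with BCAA. No vehicle library reached the lowest BCAA library. The log2 fold change was 0.24 (SE 0.06), with an unadjusted p of 0.0021 and an adjusted p of 0.14, and without vehicle replicate 1 it was 0.29 with an adjusted p of 0.0029. Over all alternatives the adjusted p ran from 0.0029 to 0.48. Epas1, which encodes the second oxygen-labile subunit, was at 74.3, 78.5 and 81.6 CPM with vehicle and 79.6, 86.2 and 78.1 CPM with BCAA, so the groups overlapped (log2 fold change 0.06, SE 0.07). Egln1, the main HIF prolyl hydroxylase in normal oxygen, was at 75.8, 80.9 and 79.6 CPM with vehicle and 77.9, 89.1 and 82.1 CPM with BCAA. Egln3, a prolyl hydroxylase that is itself a strong HIF target, was at 372, 386 and 376 CPM with vehicle and 374, 403 and 396 CPM with BCAA. Both hydroxylases overlapped between groups, with log2 fold changes of 0.08 (SE 0.07) and 0.05 (SE 0.06). The difference between the Hif1a and Epas1 log2 fold changes was not tested.

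Windows of 250 bases before the gene start were read from RefSeq promoters of build GRCr8, which is not the build rn6 of the counts. They were matched by symbol for 30 of the 34 genes, in 34 windows because some genes have several starts. Ndrg1, Ero1a, Pgk1 and Bnip3l had no entry. The core of the hypoxia response element was searched as the 5-base words ACGTG and GCGTG on both strands, where the palindrome CACGTG counts once on each strand and is also an E-box. At least 1 of the words was in 23 of 34 member windows (67.6%) and in 36.7% of 33469 windows of all genes, and ACGTG alone was in 44.1% and 16.6%. These are matches of letters, not binding sites, and the background windows include genes that were not tested here. Many members were listed because they are known HIF targets, so a higher share may come from that choice and says nothing about BCAA. Windows rather than genes were counted, and the background was not matched for base composition. The windows below belong to Bnip3, Pfkfb3 and Hif1a, whose groups did not overlap, to Ankrd37, which holds as many matches as Bnip3 (4) and had overlapping groups, and to Hk2, which holds none and whose groups did not overlap. Capitals mark the matched words, and each window runs 5′ to 3′ along the gene's strand.
Bnip3 (chr1:203154963-203155212, minus strand): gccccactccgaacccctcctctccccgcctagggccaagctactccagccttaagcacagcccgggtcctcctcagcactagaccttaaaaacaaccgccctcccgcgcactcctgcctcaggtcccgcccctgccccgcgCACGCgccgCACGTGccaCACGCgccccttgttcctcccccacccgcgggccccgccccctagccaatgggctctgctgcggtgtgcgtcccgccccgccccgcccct
Pfkfb3 (chr17:71944683-71944932, plus strand): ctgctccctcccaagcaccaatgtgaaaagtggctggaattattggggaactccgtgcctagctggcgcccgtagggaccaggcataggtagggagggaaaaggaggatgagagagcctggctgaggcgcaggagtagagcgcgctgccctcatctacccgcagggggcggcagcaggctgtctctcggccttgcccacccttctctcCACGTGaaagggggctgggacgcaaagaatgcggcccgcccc
Hif1a (chr6:98359648-98359897, plus strand): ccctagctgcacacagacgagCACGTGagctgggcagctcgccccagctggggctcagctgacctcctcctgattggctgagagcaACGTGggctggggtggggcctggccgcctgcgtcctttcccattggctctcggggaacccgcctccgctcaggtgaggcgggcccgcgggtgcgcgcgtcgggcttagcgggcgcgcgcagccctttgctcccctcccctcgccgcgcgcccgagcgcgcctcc
Ankrd37 (chr16:53001257-53001506, plus strand): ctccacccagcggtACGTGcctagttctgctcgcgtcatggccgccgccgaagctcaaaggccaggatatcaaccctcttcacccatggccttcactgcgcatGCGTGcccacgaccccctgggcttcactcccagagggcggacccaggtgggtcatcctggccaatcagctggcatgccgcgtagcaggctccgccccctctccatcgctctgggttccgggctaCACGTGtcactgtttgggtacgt
Hk2 (chr4:116841276-116841525, minus strand): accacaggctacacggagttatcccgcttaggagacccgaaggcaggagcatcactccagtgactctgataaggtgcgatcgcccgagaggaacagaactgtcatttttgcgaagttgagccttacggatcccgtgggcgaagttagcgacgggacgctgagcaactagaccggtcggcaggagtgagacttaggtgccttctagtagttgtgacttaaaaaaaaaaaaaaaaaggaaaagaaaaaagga
Pfkfb3 and Hif1a held 2 and 3 matches. The 5 windows were chosen after the values of their genes were seen.

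Glucose uptake and its first phosphorylation were covered by Slc2a1, Hk1 and Hk2. Slc2a1, the main glucose transporter of most cultured cells, was at 401, 483 and 491 CPM with vehicle and 490, 526 and 494 CPM with BCAA. Vehicle replicate 1 was low and the other vehicle libraries lay at or just under the BCAA libraries (log2 fold change 0.13, SE 0.08). Hk2, the inducible hexokinase that binds mitochondria, was at 227, 274 and 272 CPM with vehicle and 324, 319 and 294 CPM with BCAA, with no overlap. Its log2 fold change was 0.28 (SE 0.08), the highest of the glycolytic enzymes here, with an adjusted p of 0.16. Without vehicle replicate 1 it was 0.20 with an adjusted p of 0.042, so the difference was smaller and the call was made. Hk1, the constitutive hexokinase, was at 157, 173 and 170 CPM with vehicle and 156, 162 and 156 CPM with BCAA (log2 fold change -0.08, SE 0.07). The sign thus differed between the hexokinases, and the difference between them was not tested.

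Upper glycolysis runs from glucose phosphate to triose phosphates, with phosphofructokinase as its main control point. Pfkp, the platelet-type phosphofructokinase, was at 73.4, 77.1 and 74.7 CPM with vehicle and 84.7, 91.5 and 90.1 CPM with BCAA. Pfkfb3, which makes the fructose bisphosphate signal that activates phosphofructokinase, was at 52.1, 51.2 and 49.4 CPM with vehicle and 64.9, 59.1 and 59.1 CPM with BCAA. In both genes all BCAA libraries were higher than all vehicle libraries. The log2 fold changes were 0.24 (SE 0.07) and 0.26 (SE 0.08), each with an adjusted p of 0.18, and without vehicle replicate 1 that of Pfkfb3 passed (0.28, adjusted p = 0.037).

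The liver-type isoform Pfkl was at 272, 399 and 396 CPM with vehicle and 342, 375 and 348 CPM with BCAA. The muscle-type isoform Pfkm was at 18.6, 23.8 and 25.4 CPM with vehicle and 21.0, 23.9 and 23.1 CPM with BCAA. In both isoforms vehicle replicate 1 was the lowest of the 6 libraries and the BCAA libraries fell inside the vehicle range. Their log2 fold changes of 0.00 (SE 0.13) and 0.01 (SE 0.12) rest on that library, and without it they were -0.16 (adjusted p = 0.088) and -0.11 (adjusted p = 0.63). Pfkfb4, a second enzyme of the Pfkfb3 family, had 58 to 90 counts per library and a log2 fold change of 0.03 (SE 0.19).

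Aldoc, the brain-type aldolase, was at 43.8, 45.3 and 43.7 CPM with vehicle and 48.6, 50.9 and 51.0 CPM with BCAA, without overlap (log2 fold change 0.18, SE 0.08, adjusted p = 0.38). The muscle-type aldolase Aldoa was at 1598, 1629 and 1613 CPM with vehicle and 1595, 1694 and 1728 CPM with BCAA, with BCAA replicate 1 the lowest of all 6 (log2 fold change 0.05, SE 0.06). Gpi, the isomerase of glucose phosphate, had a log2 fold change of 0.10 (SE 0.06) with overlapping groups. Upper glycolysis thus held no gene past the threshold among 9. At an unadjusted p under 0.05, 3 members were higher (33.3%, against 5.95% of all tested genes) and 0 lower (against 5.84%).

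Lower glycolysis turns triose phosphates into pyruvate and yields the ATP, and none of its members passed the threshold. Pgk1, the first of its ATP-yielding kinases, was at 1071, 1103 and 1098 CPM with vehicle and 1155, 1198 and 1216 CPM with BCAA. The log2 fold change was 0.13 (SE 0.06), with an unadjusted p of 0.049 and an adjusted p of 0.42. Pgam1, the mutase, averaged 964 ± 6.27 CPM in vehicle libraries against 1039 ± 36.6 CPM in BCAA libraries (SD over 3 libraries each), and its groups did not overlap either (log2 fold change 0.11, SE 0.06). Eno1, the ubiquitous enolase, lay the other way, at 1156, 1220 and 1230 CPM with vehicle and 1104, 1143 and 1125 CPM with BCAA, again without overlap (log2 fold change -0.10, SE 0.06, adjusted p = 0.55). With library totals alone in place of TMM scaling, the groups of Eno1 overlapped: 16 members then had all BCAA libraries above all vehicle libraries (against 12.4% of all genes) and 0 had all below (against 6.32%). Pkm, the pyruvate kinase of non-hepatic cells, was at 1136 ± 74.6 and 1145 ± 98.2 CPM and did not differ in the mean beyond its spread (log2 fold change 0.01, SE 0.07). The neuronal enolase Eno2 was at 1.79, 1.33 and 2.51 CPM with vehicle and 3.04, 1.90 and 1.02 CPM with BCAA. It had 13 to 45 counts per library and a log2 fold change of 0.11 with an SE of 0.38, so no difference was detectable at this depth.

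Gapdh and Tpi1 are uncertain here. Gapdh had 2186 to 3834 counts per library and was at 238, 228 and 186 CPM with vehicle and 148, 243 and 240 CPM with BCAA, with BCAA replicate 1 the lowest and the other BCAA libraries the highest. Its coefficient of variation was 25.8% among BCAA libraries, against a median of 4.19% over the 34 genes and 7.70% over all tested genes. Tpi1 had 14 to 47 counts per library. In RefSeq's GRCr8 table, 91 other genes and pseudogenes are named after Gapdh, 34 after Eno1, 31 after Ldha and 20 after Pkm. Pgam1 has 13 such copies, Pgk1 and Aldoa 9 each, Bnip3 8, Egln1 6, Tpi1 5, and Ldhb, Bnip3l and Ankrd37 1 each. Reads that match several copies may have been split or left out by the counting. Leaving out Gapdh and Tpi1, 26 of 32 genes had a positive log2 fold change and the median was 0.09.

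**Figure D3:**
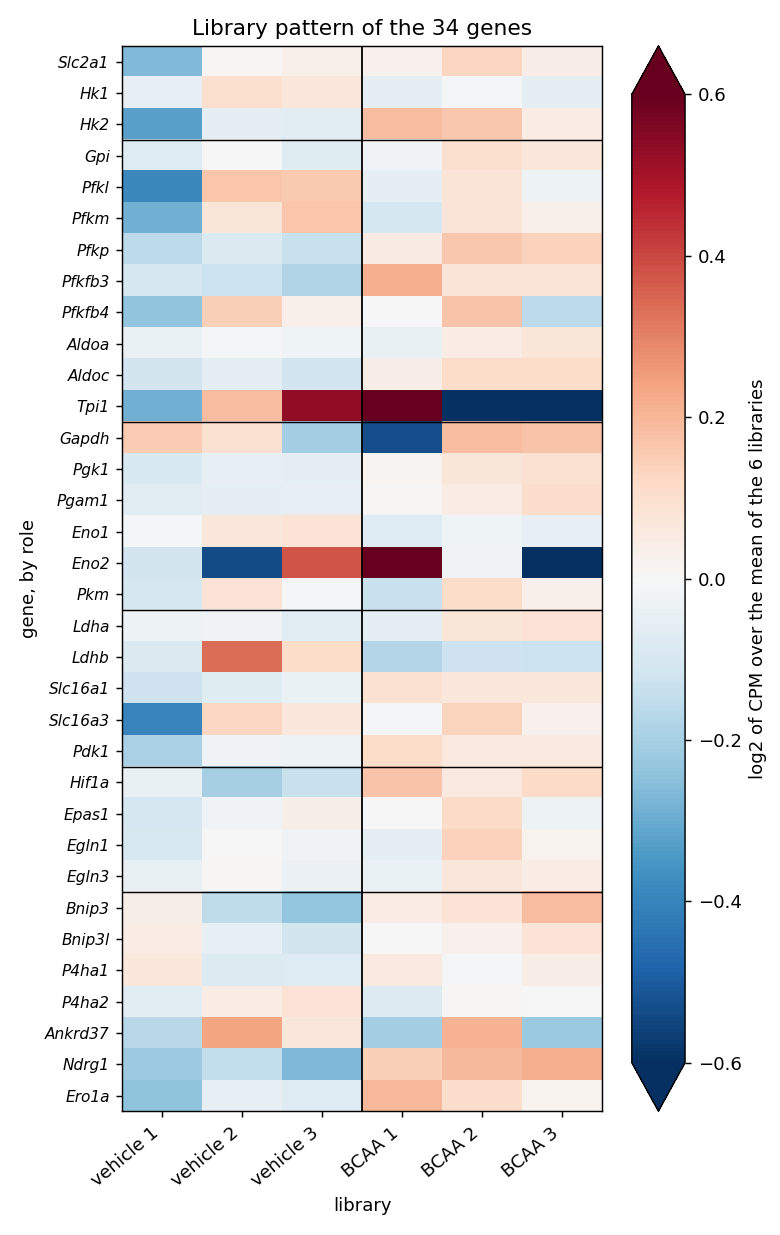
Log2 of the CPM of each gene over its mean in the 6 libraries (colour, white at the mean, cut at 0.6 in either direction) for the 34 genes (rows, by role) and the 6 libraries (columns, vehicle left of the line). Ndrg1, Hif1a, Pfkp, Pfkfb3 and Slc16a1 change colour at the line, while Pfkl, Slc16a3 and Slc2a1 are pale or red in 5 libraries and blue in vehicle replicate 1.

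The fate of pyruvate was covered by lactate dehydrogenases, lactate transporters and a pyruvate dehydrogenase kinase. Slc16a1, a carrier that moves lactate and protons in either direction, was at 218, 226 and 231 CPM with vehicle and 253, 249 and 249 CPM with BCAA. The libraries of each group lay close together and the groups were apart (log2 fold change 0.15, SE 0.06, unadjusted p = 0.022, adjusted p = 0.33). Slc16a3, the lactate exporter of glycolytic cells, was at 295, 424 and 406 CPM with vehicle and 386, 426 and 396 CPM with BCAA. Its log2 fold change of 0.10 (SE 0.11) rested on vehicle replicate 1, and without that library it was -0.04 (SE 0.05). Pdk1, the kinase that shuts pyruvate dehydrogenase and so keeps pyruvate out of mitochondria, was at 57.9, 65.1 and 64.7 CPM with vehicle and 71.3, 68.9 and 69.0 CPM with BCAA, with no overlap and an adjusted p of 0.44.

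Ldha, the subunit that favours lactate formation, was at 1735, 1742 and 1695 CPM with vehicle and 1703, 1862 and 1878 CPM with BCAA, and the groups overlapped (log2 fold change 0.07, SE 0.06). Ldhb, the subunit that favours pyruvate formation, was at 16.3, 21.9 and 18.7 CPM with vehicle and 15.4, 15.9 and 15.9 CPM with BCAA. It was the only member lower at an unadjusted p under 0.05 (0.044), with a log2 fold change of -0.27 (SE 0.12) and an adjusted p of 0.41. Vehicle replicate 1 lay within 1 CPM of the BCAA libraries. Without vehicle replicate 2 the log2 fold change was -0.16, and without vehicle replicate 1 it was -0.37 (adjusted p = 0.082).

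Vehicle replicate 1 stood apart in several of these genes and the number of calls moved when it was left out. Against the mean of the other vehicle libraries it was lower by more than 0.25 on the log2 scale in 9 of the 34 genes and higher by as much in 0. Of all 12298 tested genes 2511 were lower and 2022 higher. Low values in that library were thus common over all genes and not particular to the members. The log2 ratios of the 9 were -0.65 for Tpi1, -0.55 for Pfkl, -0.49 for Slc16a3 and -0.41 for Pfkm. They were -0.32 each for Ldhb, Pfkfb4 and Ankrd37, -0.28 for Slc2a1 and -0.26 for Hk2. The ratio was 0.23 for Bnip3. With that library left out 5 members were called higher, namely Ndrg1, Hif1a, Bnip3, Pfkfb3 and Hk2, and 0 lower, where 1.86% of all tested genes were called higher and 2.2% lower. Leaving out any other library called 0 members. With DESeq2 on all 6 libraries Ndrg1 alone was called, of 31 members with an adjusted p, against 0.583% of all genes called higher and 0.763% lower.

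**Figure D4:**
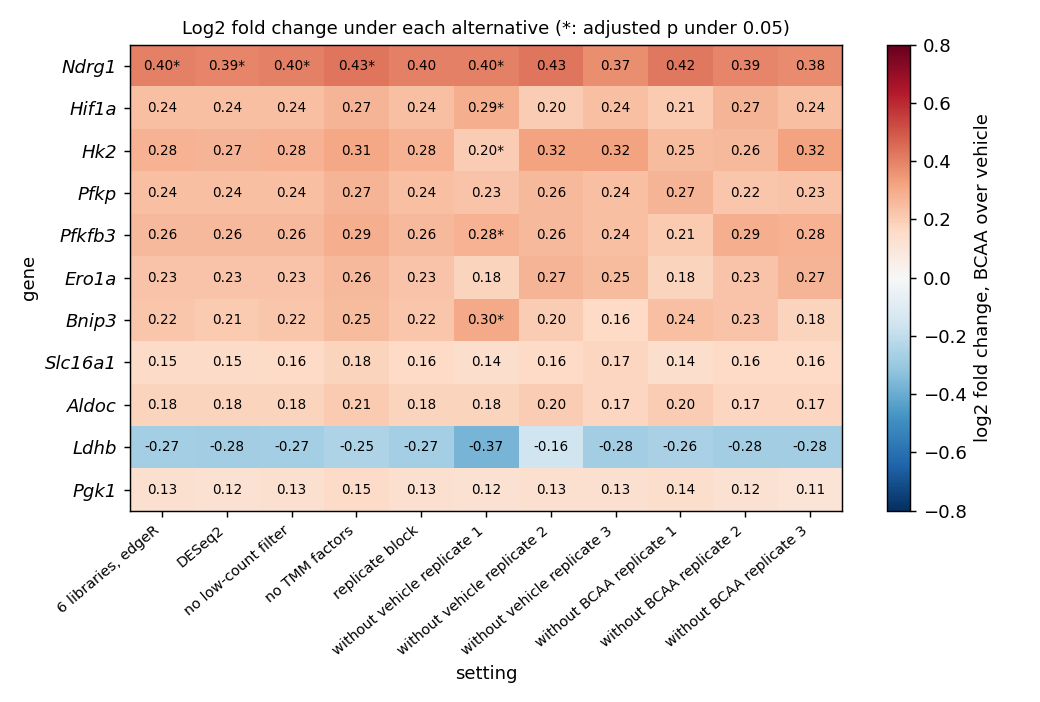
Log2 fold change of BCAA over vehicle (colour and number) for the 11 members with an unadjusted p under 0.05 in all 6 libraries (rows) under each alternative (columns), with an asterisk where the adjusted p was under 0.05. Every sign is the same across a row, and the asterisks beyond Ndrg1 all stand in the column without vehicle replicate 1.

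Further genes of the same pathways, from lists chosen with earlier results of these data known, were read from the same test. Of 33 other hypoxia targets none passed the threshold over all genes, 24 had a positive log2 fold change (72.7%, against 50.8% of all genes), and the median was 0.12. Their median SE was 0.08, against 0.11 over all tested genes, so the shares do not compare genes of equal spread. Of these targets 10 were higher (30.3%, against 5.95%) and 4 lower (12.1%, against 5.84%) with an unadjusted p below 0.05. Without BCAA replicate 3, 7 were higher and 2 lower, where 9.81% of all genes were at that p in either direction. Without vehicle replicate 1, 5 of the 33 passed the threshold over all genes, counting both directions. In that fit 1.86% of all tested genes were called higher and 2.2% lower. The 3 with the smallest p were the secreted glycoprotein genes Stc1 (59.9 ± 3.67 CPM in vehicle libraries against 78.5 ± 8.46 CPM in BCAA libraries, log2 fold change 0.39, SE 0.09, adjusted p = 0.089) and Stc2 (0.51, SE 0.13, adjusted p = 0.14) and the adenylate kinase gene Ak4 (0.38, SE 0.11, adjusted p = 0.16). Stc1 passed with DESeq2 (adjusted p = 0.023), with no filter on low counts (0.017) and with vehicle replicate 1 left out (0.0049), and its adjusted p ran up to 0.36 over the alternatives. Stc2 is also induced by the amino acid stress response. Vegfa, the angiogenic factor and a textbook HIF target, chosen after its values were seen, was at 1724, 1874 and 1850 CPM with vehicle and 2035, 2021 and 1970 CPM with BCAA (log2 fold change 0.15, SE 0.06, adjusted p = 0.37). Adm, which encodes adrenomedullin and is likewise a HIF target, was also chosen after its values were seen and lay the other way (log2 fold change -0.24, SE 0.07, adjusted p = 0.19).

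Of 13 tested genes for other parts of the HIF machinery none passed (median 0.01). Arnt2, a partner of the alpha subunits, averaged 5.27 ± 0.374 CPM in vehicle libraries against 7.83 ± 0.210 CPM in BCAA libraries (log2 fold change 0.57, SE 0.15, adjusted p = 0.15). Vhl, which recognises hydroxylated alpha subunits for destruction, had a log2 fold change of 0.22 (SE 0.08, adjusted p = 0.30). The coactivator-binding Cited4, with only 5 to 25 counts per library, had -0.83 (SE 0.44, adjusted p = 0.49). Its log2 fold change was -0.49 without vehicle replicate 2 and -1.27 without BCAA replicate 2. Vhl passed without vehicle replicate 1 (0.27, adjusted p = 0.036). Of 23 tested other glycolytic isozymes, transporters and pyruvate dehydrogenase genes none passed (median -0.03). Among them Bpgm, which makes bisphosphoglycerate, averaged 26.2 ± 1.15 CPM in vehicle libraries against 20.5 ± 0.253 CPM in BCAA libraries (log2 fold change -0.35, SE 0.10, adjusted p = 0.15). Pdk4 had 0.89 (SE 0.30, adjusted p = 0.25), from 18 to 60 counts per library and with overlapping groups. Bpgm passed without vehicle replicate 1 (-0.38, adjusted p = 0.035).

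Branches that leave glycolysis showed 1 gene that changed. None of 9 tested pentose phosphate genes passed (median -0.02), and Prps1, which makes phosphoribosyl pyrophosphate, had the smallest p (log2 fold change -0.30, SE 0.10, adjusted p = 0.27). Of 19 genes of glycogen, hexosamine and glycerol phosphate metabolism Uap1 fell and 18 did not pass (median 0.01). Uap1, which makes UDP-N-acetylglucosamine at the end of the hexosamine pathway, was at 1601, 1676 and 1635 CPM with vehicle and 1251, 1325 and 1297 CPM with BCAA. It fell by 0.34 on the log2 scale (SE 0.06, adjusted p = 0.026). Its call was lost with any library other than vehicle replicate 1 left out (adjusted p from 0.11 to 0.19) and with the replicate number as a block (0.22). The earlier hexosamine enzymes Gfpt1 and Gfpt2, chosen after their values were seen, gave a log2 fold change of -0.07 (SE 0.06) for the first and 0.04 (SE 0.06) for the second.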

How the data were processed

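RNA sequencing libraries of rat cells, 6 in all and 3 per group, were analysed from 1 table of raw counts per gene symbol, as deposited by the authors, not normalized and not pooled. Per the submitters' processing notes, Trimmomatic, FastQC, STAR, HTSeq and build rn6 were used. The sources used here give no versions, annotation or strand setting, so reads of overlapping genes cannot be told apart by strand. Columns were matched to titles, and groups taken from titles. Counts of library pairs differed beyond sampling noise (chi-square per degree of freedom 2.65 to 18.1), so none was a second copy.

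The test was edgeR 4.0.16 (R 4.3.3) quasi-likelihood with robust estimation, TMM and filterByExpr (minimum count 10, minimum total 15), the group as the only term, and Benjamini-Hochberg adjustment over 12298 genes at 0.05. SE is the log2 fold change divided by the square root of F. The fits were tested on simulated data. Alternatives were DESeq2 1.42.0, no filter, no TMM factors, a replicate block and each library left out. The members and lists were chosen with earlier results of these data known. Values in every library are given for members with an unadjusted p under 0.05, for Hif1a, Epas1, Egln1 and Egln3, and for the hexokinase, phosphofructokinase, aldolase, enolase, lactate dehydrogenase and lactate transporter isoforms, and other members by ranges, means or differences. Of each other list up to 3 tested genes with the smallest p are named. Other symbols were matched through the GRCr8 table where needed (Ca9 and Ca12 as Car9 and Car12), and Pgd, Hkdc1, Col1a2, Pecam1 and Itgam were not analysed here.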

Additional observations from a re-analysis of the deposited data

How the results depend on the processing

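Of 12298 genes 28 were called, and 6 with the replicate number as a block. DESeq2 called 127 of the 9437 genes to which it gave an adjusted p, and 124 of 16570 were called with no filter on low counts. Leaving out 1 library called 7 to 500 genes, with 500 without vehicle replicate 1. Of the members 1 was called, 0 with the replicate block, and 0 to 5 with 1 library left out. The median of the members was 0.07, and 0.07 to 0.12 with 1 library left out, the highest without BCAA replicate 1. Groups of 14 members did not overlap, and of 14 to 22 with 1 library left out (22 without BCAA replicate 1). Over all genes the share was 18.1%, and 25.9% to 35.5% with 1 library left out (26.1% without BCAA replicate 1). Whether the replicate numbers pair the libraries was not settled. Deviations of equal numbers correlated at -0.066, 0.105 and -0.146, and not every library correlated best with its own number. With 3 libraries per group such correlations cannot decide it. Library totals of equal numbers were close: 14484051 and 14482260 counts (vehicle and BCAA replicate 1), 15739731 and 15654060 (replicate 2), 12725344 and 12802663 (replicate 3). Ndrg1 lost its call under the block (adjusted p = 0.16) and without any library but vehicle replicate 1.

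Of 340 member values under alternatives, 311 kept their direction and side of the threshold, 6 lost the call (all Ndrg1), 4 gained it and 19 changed sign. None of the sign changes was in a called gene. Pfkl was at 0.02 without TMM factors, at 0.02 with the replicate block, and at -0.16 to 0.09 with 1 library left out. With 1 library left out Pfkm ran from -0.11 to 0.09, Pfkfb4 from -0.07 to 0.11, Gapdh from -0.16 to 0.15, Pkm from -0.04 to 0.07, Slc16a3 from -0.04 to 0.20 and Eno2 from -0.32 to 0.41. The cause was not tested. Depth limits Eno2, Tpi1, Pfkfb4 and Ankrd37 most. The counts at an unadjusted p and the other pathway genes were followed through the same alternatives after seeing the data.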

Other observations

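Within sets of related genes, the share of counts taken by each partner does not depend on the scaling between libraries. It comes from the same counts and is not independent of the differences above. Shares of counts depend on transcript length and are not shares of molecules, so only their change between libraries is read, with no test. Hk2 took 59.1%, 61.2% and 61.5% of the Hk1 and Hk2 counts with vehicle (replicates 1 to 3) and 67.5%, 66.4% and 65.3% with BCAA, so vehicle replicate 1, which was low in Hk2, was also low in Hk1 and did not stand far apart in the share. Aldoc took 2.67% ± 0.0362 of the aldolase counts with vehicle and 2.91% ± 0.0446 with BCAA (SD, n = 3 each), without overlap. Bnip3l took 50.2%, 51.9% and 52.2% of the Bnip3 and Bnip3l counts with vehicle and 49.2%, 49.0% and 48.3% with BCAA, also without overlap. Among the phosphofructokinases Pfkp took 20.2%, 15.4% and 15.1% with vehicle and 18.9%, 18.7% and 19.5% with BCAA, where vehicle replicate 1 lay above every BCAA library and the other vehicle libraries below. Egln3 took 82.8% ± 0.295 of the Egln1 and Egln3 counts with vehicle and 82.5% ± 0.507 with BCAA (SD, n = 3 each), with overlap. The shares of Slc16a3, Eno2, Epas1, Pfkfb4, P4ha2, Pfkl and Pfkm in their sets overlapped between groups as well. Ldha took 98.9% ± 0.155 of the Ldha and Ldhb counts with vehicle and 99.1% ± 0.0306 with BCAA.

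Gapdh, often used as a reference gene, ranged from 148 to 243 CPM among the 3 BCAA libraries, while Pgk1 ranged from 1155 to 1216 CPM and Pgam1 from 1005 to 1078 CPM in the same libraries. Hsp90aa1, a chaperone of HIF alpha subunits, was listed at 0 counts in all 6 libraries, while Hsp90ab1 was at 2030 and 2041 CPM in vehicle and BCAA means.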
